A study of Mus musculus with 16 samples.

Results

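Trp53, the gene of the transcription factor p53, and 9 of its direct target genes for cell cycle arrest and apoptosis were followed in 16 RNA sequencing libraries of mouse embryo head tissue. The 9 targets were Mdm2, Cdkn1a, Ccng1, Zmat3, Phlda3, Bax, Bbc3, Pmaip1 and Trp53inp1. The 10 genes were listed by symbol as p53 and known targets, with no cutoff on a measured value, and are 10 of the 24421 genes in the deposited count tables. All 10 passed the filter of at least 10 counts in at least 4 libraries, as did 14514 genes in all.

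The libraries came from heads at embryonic day 8.5, cut from the first branchial arch to just above the otic vesicle. There were 4 libraries in each of 4 groups: homozygous IFT88-NULL embryos on an enriched diet (10 ppm folic acid), wild type (WT) embryos on that diet, homozygous IFT88-NULL embryos on a moderate diet (2 ppm), and WT embryos on the moderate diet. All embryos were of the F3 generation, after mice had been kept for 3 generations on their diet. The IFT88-NULL embryos, called mutants here, lack a gene whose product carries cargo along the cilium and is needed to build it. The labels give neither strain nor litter, and p-values therefore reflect the spread among libraries only, part of which may be technical.

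In unstressed cells p53 protein is kept low by Mdm2, a ubiquitin ligase that marks it for breakdown and is itself made from a p53 target gene. DNA damage, nucleotide shortage and other stress block this breakdown, and p53 then switches on genes that halt the cell cycle, such as Cdkn1a, and genes that open the path to apoptosis, such as Bbc3. Because p53 is controlled mainly as a protein, the mRNA of Trp53 does not report its activity. In the mouse embryo at neural tube stages an excess of p53 activity is known to cause open neural tubes and craniofacial defects.

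Reads assigned to genes numbered 19249433 to 44267434 per library. Ift88, the deleted gene, had 2.99, 8.61, 2.86 and 5.25 CPM, the count scaled to the library total in enriched mutants, against 19, 20.7, 17.9 and 20.8 CPM in enriched WT heads. It had 3.35, 6.44, 2.01 and 3.44 CPM in moderate mutants, against 19.9, 9.30, 20.9 and 20.7 CPM in moderate WT heads. The groups did not overlap, and moderate WT replicate 2 had the lowest WT level. All 8 neural markers of the embryonic head and all 6 markers of mesenchyme and neural crest were measured. They summed to 929 to 1138 CPM and to 221 to 281 CPM per library over the 16 libraries. The 5 cardiac markers listed summed to 5.28 CPM or less, and Tnnt2 and Nkx2-5 among them did not pass the filter. Counts of Xist and Y-linked genes contradicted the sex label in 3 libraries: moderate mutant replicates 1 and 2 and moderate WT replicate 2. In enriched mutant replicate 3 the decidua gene Prl8a2 stood at 189 CPM, against 3.46 CPM or less in the other enriched mutants and 0.201 CPM or less in enriched WT heads. The 5 visceral endoderm markers summed to 102 CPM in enriched mutant replicate 4, against 0.433 to 3.71 CPM in the other enriched mutants and 4.30 to 22.2 CPM in enriched WT heads. In moderate heads they summed to 2.12 to 26.0 CPM in mutants and 6.38 to 16.4 CPM in WT heads, and 0 of the 5 passed edgeR's test on either diet or had an unadjusted p under 0.05. Moderate mutant replicate 3 differed from the other moderate mutants in stress genes, as given below.

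Promoters of 7 of the 10 genes were taken from RefSeq (build GRCm38.p6). Each was a window of 250 bases before the transcription start and 50 bases from it. Trp53inp1 and Zmat3 were not matched, and Pmaip1 was left out, so its promoter is not described here. The windows were searched for the p53 half-site, the 10-base consensus that one pair of p53 subunits contacts and that reads alike on both strands, and for a full site of 2 half-sites with at most 13 bases between them and at most 1 mismatch. An exact half-site was present in windows of 5 of the 7 genes, namely Trp53, Cdkn1a, Ccng1, Mdm2 and Bax, and in none of the windows of Bbc3 or Phlda3. Over all 32851 promoter windows 8.36% held an exact half-site, and 0.417% held a full site. Counted by gene, as for the 7 genes, these shares were 9.55% and 0.47%. A full site was found only for Cdkn1a among the 7 genes, in its upstream window. The windows of Cdkn1a, which changed most, of Trp53 itself, and of 2 classic targets that did not pass the test, Mdm2 and Ccng1, are given 5′ to 3′ on the strand of the gene, with matches in capitals.
Cdkn1a (chr17:29090729-29091028, + strand): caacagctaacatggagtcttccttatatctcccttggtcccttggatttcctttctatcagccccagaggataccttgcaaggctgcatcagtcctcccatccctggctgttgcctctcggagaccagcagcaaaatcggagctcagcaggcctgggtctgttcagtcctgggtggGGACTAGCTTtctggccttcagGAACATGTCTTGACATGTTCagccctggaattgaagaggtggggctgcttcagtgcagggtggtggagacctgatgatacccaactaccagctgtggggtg
Trp53 (chr11:69580109-69580408, + strand): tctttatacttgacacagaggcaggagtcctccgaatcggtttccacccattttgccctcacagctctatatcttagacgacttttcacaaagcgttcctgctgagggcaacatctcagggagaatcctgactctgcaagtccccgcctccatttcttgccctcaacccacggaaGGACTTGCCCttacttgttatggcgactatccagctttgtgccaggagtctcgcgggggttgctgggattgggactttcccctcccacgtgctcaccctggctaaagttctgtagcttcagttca
Mdm2 (chr10:117710709-117711008, - strand): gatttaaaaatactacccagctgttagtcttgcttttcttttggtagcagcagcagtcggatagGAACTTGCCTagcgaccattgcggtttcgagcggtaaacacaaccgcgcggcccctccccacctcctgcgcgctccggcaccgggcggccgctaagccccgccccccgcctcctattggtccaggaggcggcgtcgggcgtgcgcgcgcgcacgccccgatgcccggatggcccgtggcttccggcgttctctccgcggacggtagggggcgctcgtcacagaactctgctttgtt
Ccng1 (chr11:40755237-40755536, - strand): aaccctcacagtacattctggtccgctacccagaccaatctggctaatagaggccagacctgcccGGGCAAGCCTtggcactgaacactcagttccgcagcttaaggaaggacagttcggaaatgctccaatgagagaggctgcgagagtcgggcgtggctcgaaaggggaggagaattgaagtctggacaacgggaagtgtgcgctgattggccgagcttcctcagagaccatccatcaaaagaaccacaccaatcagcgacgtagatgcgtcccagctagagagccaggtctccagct

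In the Cdkn1a window the 20 bases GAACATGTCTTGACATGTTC, at chr17:29090928-29090947 and 51 to 32 bases before the start, form a full site with no spacer and 1 mismatch. Such a spacer-free site occurred in 18 of the 32851 windows, or 0.0548%. The half-site GGACTAGCTT lies 12 bases ahead of it and makes a further full site together with the first 10 of these 20 bases, so the matches overlap. The second Cdkn1a window, at the downstream start, held no half-site. These matches describe letters in short windows and say nothing of whether p53 was bound. Known p53 sites of Mdm2 lie in its first intron, outside the window shown.

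Levels between genes were compared as CPM per kilobase of exon, with exon lengths from GENCODE vM21 (mm10). The order over the 16 libraries was Bax with a mean of 55.1 ± 5.62 CPM per kb (SD, n = 16), Trp53 with 50.8 ± 4.83, Ccng1 with 20.9 ± 2.40, Mdm2 with 11.9 ± 0.876, Zmat3 with 7.05 ± 0.348, Bbc3 with 6.15 ± 1.249, Phlda3 with 5.05 ± 0.835, Trp53inp1 with 3.66 ± 0.751, Cdkn1a with 2.18 ± 0.868 and Pmaip1 with 1.64 ± 0.299 CPM per kb. Bax and Trp53 overlapped in range, whereas Trp53 lay wholly above Ccng1, Ccng1 above Mdm2, and Mdm2 above Zmat3. From Zmat3 down to Pmaip1 each gene overlapped the next in this order. Cdkn1a varied most among the 10 genes, with a highest library at 3.48 times the lowest, and Zmat3 least, at 1.19 times.

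**Figure D1:**
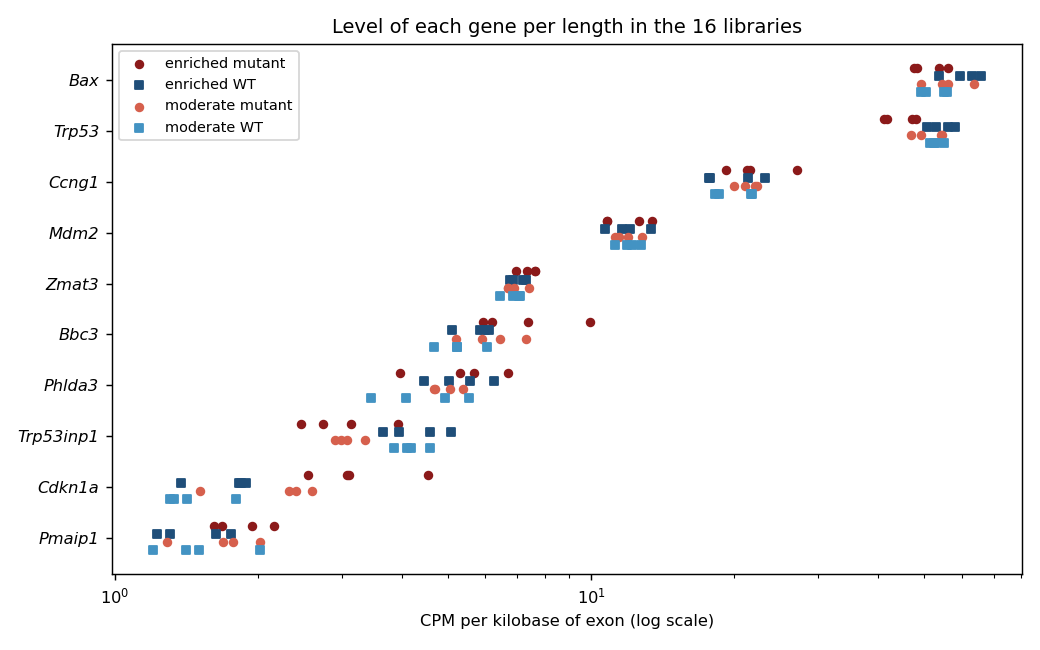
CPM per kilobase of exon (log axis) of the 10 genes, one point per library, with mutants as circles and WT as squares, ordered by the mean over 16 libraries. Bax and Trp53 stand highest at means of 55.1 and 50.8 CPM per kb, and Cdkn1a is spread most widely near the bottom.

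The first question the design puts is how loss of Ift88 changed these genes on each diet. On the enriched diet 3 of the 10 genes passed an adjusted p of 0.05 (edgeR quasi-likelihood test, Benjamini-Hochberg adjusted over all genes tested): Cdkn1a rose, and Trp53 and Trp53inp1 fell. Over all genes tested 31.2% passed there, so the share of 3 in 10 lies at the background and is not a result about p53 targets as a group. On the moderate diet 0 of the 10 passed, against 7.62% of all genes. There 2 of the 10 had an unadjusted p under 0.05 by edgeR, against 23.4% of all genes. DESeq2 called 2 there, Cdkn1a and Trp53inp1, and its share over all genes is not given here. Averaged over both diets 4 of 10 passed, with Bbc3 added to the same 3 genes, against 35.8% of all genes. As whole heads were sequenced, fewer cells of a type and less RNA per cell cannot be told apart in any of these differences.

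**Figure D2:**
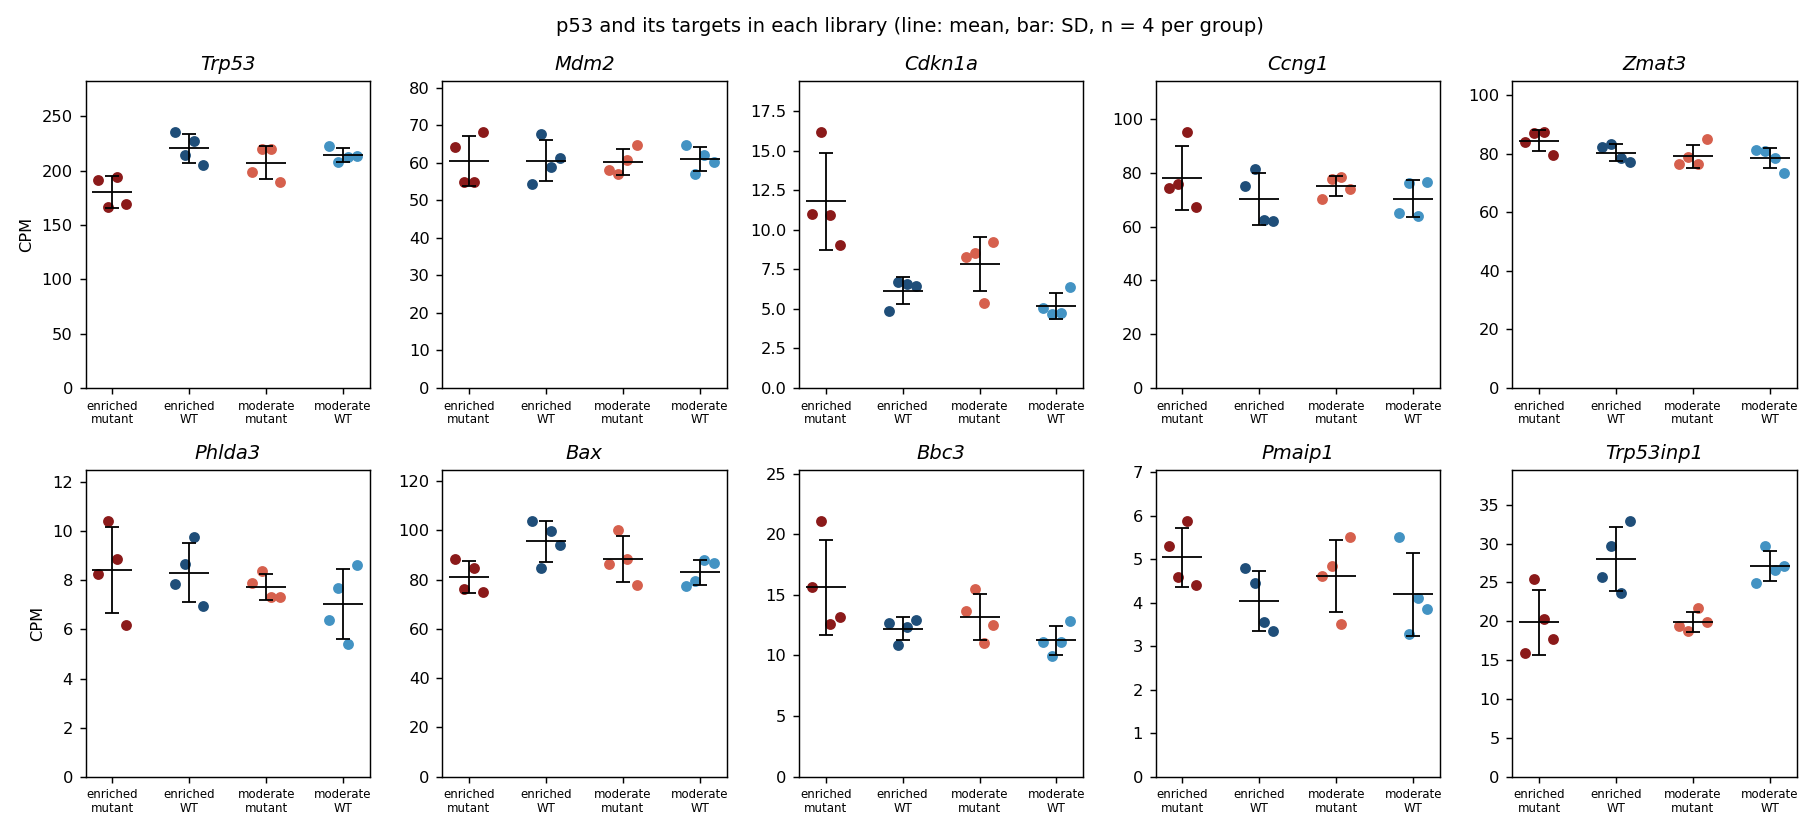
CPM (linear axes from 0) of each gene in the 16 libraries, by diet and genotype, with the mean as a line and the SD as a bar (n = 4 per group). Enriched mutants lie wholly above enriched WT heads for Cdkn1a and wholly below them for Trp53, while Mdm2 and Zmat3 hardly differ between the groups.

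Trp53 (chr11:69580359-69591873, + strand) fell slightly in enriched mutants. It had 191, 167, 195 and 169 CPM in enriched mutants, against 235, 214, 227 and 205 CPM in enriched WT heads. All 4 mutants lay below all 4 WT heads, and the log2 fold change was -0.31 ± 0.07 (SE), or 0.807-fold, with an adjusted p of 0.00456 in edgeR. In moderate heads it had 199, 220, 220 and 190 CPM in mutants, against 223, 208, 212 and 213 CPM in WT heads. These groups overlapped, and the log2 fold change was -0.05 ± 0.07 with a 95% interval of -0.19 to 0.10.

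Mdm2 (chr10:117688875-117710758, - strand), the ubiquitin ligase that restrains p53, showed no detectable difference. It averaged 60.5 ± 6.76 CPM in enriched mutants and 60.6 ± 5.54 CPM in enriched WT heads, and 60.2 ± 3.48 CPM in moderate mutants and 61.0 ± 3.19 CPM in moderate WT heads (SD, n = 4 each). The 95% interval of the log2 fold change ran from -0.19 to 0.17 on the enriched diet and from -0.20 to 0.16 on the moderate diet.

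Cdkn1a (chr17:29090976-29100727, + strand), which encodes the cyclin-dependent kinase inhibitor p21, rose in enriched mutants and had the largest change of the 10 genes. It had 11, 16.2, 10.9 and 9.05 CPM in enriched mutants, against 4.89, 6.71, 6.55 and 6.47 CPM in enriched WT heads, from 206 to 487 and 102 to 224 counts. Every enriched mutant lay above every enriched WT head. The log2 fold change was 0.93 ± 0.20 (SE), a 1.91-fold rise, with an adjusted p of 0.00277 in edgeR, and without enriched mutant replicate 2, the highest library, it was 0.71 with an adjusted p of 0.0158.

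In moderate heads Cdkn1a had 8.27, 8.53, 5.36 and 9.20 CPM in mutants, against 5.04, 4.65, 4.73 and 6.39 CPM in WT heads. Mutant replicate 3 lay within the WT range and the other 3 mutants above it. The log2 fold change of 0.58 ± 0.20 missed the threshold with an adjusted p of 0.0874 in edgeR, at an unadjusted p of 0.0103. Without mutant replicate 3 it was 0.73 with an adjusted p of 0.0150, and without enriched mutant replicate 2, which enters through the shared spread, the adjusted p was 0.0463. An antisense transcript covers 7.68% of the exons of Cdkn1a, and the library kit keeps no strand, so reads there cannot be assigned with certainty.

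Ccng1, Zmat3 and Phlda3 did not pass the test on either diet. Ccng1 (chr11:40748552-40755311, - strand), cyclin G1, averaged 78.2 ± 11.9 CPM in enriched mutants and 70.2 ± 9.67 CPM in enriched WT heads, and 75.0 ± 3.77 CPM in moderate mutants and 70.4 ± 6.92 CPM in moderate WT heads. Its log2 fold changes were 0.10 ± 0.09 and 0.09 ± 0.09 on the enriched and moderate diets. Zmat3 (chr3:32334792-32366014, - strand), an RNA-binding zinc finger protein, averaged 84.5 ± 3.69 CPM in enriched mutants and 80.4 ± 3.01 CPM in enriched WT heads. In moderate mutants Zmat3 averaged 79.2 ± 3.93 CPM, against 78.4 ± 3.48 CPM in moderate WT heads, and its log2 intervals reached 0.19 at most. Phlda3 (chr1:135766119-135769136, + strand), a repressor of the kinase Akt, averaged 8.44 ± 1.75 CPM in enriched mutants and 8.31 ± 1.19 CPM in enriched WT heads. In moderate mutants Phlda3 averaged 7.73 ± 0.525 CPM, against 7.03 ± 1.43 CPM in moderate WT heads. Its level was lower, and its intervals, -0.37 to 0.33 on the enriched and -0.21 to 0.49 on the moderate diet, leave room for changes that the other 2 genes do not.

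Of the 3 Bcl2 family members that p53 induces, 0 passed on either diet alone by edgeR, with Bax below 0 and Bbc3 and Pmaip1 above 0 on the log2 scale on the enriched diet. Bbc3 (chr7:16308393-16318205, + strand), which encodes Puma, had 15.7, 21.1, 12.6 and 13.1 CPM in enriched mutants, against 12.7, 10.9, 12.4 and 13 CPM in enriched WT heads. It had 13.7, 15.5, 11 and 12.5 CPM in moderate mutants, against 11.1, 9.92, 11.1 and 12.8 CPM in moderate WT heads. The groups overlapped on both diets, and enriched mutant replicate 2 was the highest library. Bbc3 rose in the average over both diets, by 0.30 ± 0.10 on the log2 scale (adjusted p of 0.0315, edgeR), and missed the threshold on the enriched diet alone, at 0.39 ± 0.15 with an adjusted p of 0.0563. That enriched value lay close to the threshold: it passed in 12 of 28 alternatives, among them DESeq2 (adjusted p of 0.0301), median-of-ratios scaling and 6 of the 16 fits with 1 library left out, and it was 0.22 (adjusted p of 0.256) without enriched mutant replicate 2. The call of the average was lost without enriched mutant replicate 2 (0.23, adjusted p of 0.0749), without enriched WT replicate 2, without moderate WT replicate 2, with limma-voom and without the 3 libraries whose sex label was contradicted.

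Bax (chr7:45461697-45466898, - strand), which forms pores in the mitochondrial outer membrane, had 88.3, 76.0, 84.8 and 75.0 CPM in enriched mutants, against 104, 84.6, 99.5 and 93.9 CPM in enriched WT heads. Its log2 fold change there was -0.23 ± 0.09, with an adjusted p of 0.0603 in edgeR. It passed without the sex covariate (adjusted p of 0.0490), without enriched WT replicate 2 or without moderate mutant replicate 4, and the groups overlapped through 2 mutants that lay above the lowest WT head. Bax averaged 88.1 ± 9.33 CPM in moderate mutants and 82.9 ± 5.18 CPM in moderate WT heads, with a log2 fold change of 0.09 ± 0.09. Another gene on the same strand shares 12.2% of its exon bases. Pmaip1, which encodes Noxa, was the least abundant per length and averaged 5.04 ± 0.681 CPM in enriched mutants and 4.04 ± 0.693 CPM in enriched WT heads. In moderate mutants Pmaip1 averaged 4.62 ± 0.829 CPM, against 4.20 ± 0.949 CPM in moderate WT heads. At 68 to 234 counts per library its log2 intervals were wide, from -0.10 to 0.67 on the enriched and from -0.24 to 0.52 on the moderate diet.

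Trp53inp1 (chr4:11156431-11174379, + strand), a nuclear and autophagy protein that p53 induces, fell in enriched mutants, opposite to Cdkn1a. It had 15.9, 25.4, 20.3 and 17.7 CPM in enriched mutants, against 25.6, 29.7, 23.7 and 32.9 CPM in enriched WT heads. Mutant replicate 2 lay within the WT range and the other 3 below it. The log2 fold change was -0.49 ± 0.13 (adjusted p of 0.0120, edgeR), and without enriched WT replicate 2 it was -0.40 and no longer passed. In moderate heads it had 19.4, 18.7, 21.7 and 19.9 CPM in mutants, against 24.9, 29.7, 26.7 and 27.1 CPM in WT heads. All 4 mutants lay below all 4 WT heads there, and the log2 fold change of -0.44 ± 0.13 just missed the threshold, with an adjusted p of 0.0530 in edgeR. It passed there when moderate mutant replicate 3, enriched mutant replicate 1, 2 or 4, or enriched WT replicate 4 was left out.

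Of the 10 genes 2 did not overlap between mutants and WT on the enriched diet, Trp53 and Cdkn1a, against 23.7% of all genes tested. On the moderate diet 1 did not overlap, Trp53inp1, against 15.6% of all genes. The median log2 fold change of the 10 was 0.03 on the enriched and 0.09 on the moderate diet, beside -0.01 over all genes on either diet. Of the 10, 5 were positive on the enriched and 7 on the moderate diet.

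**Figure D3:**
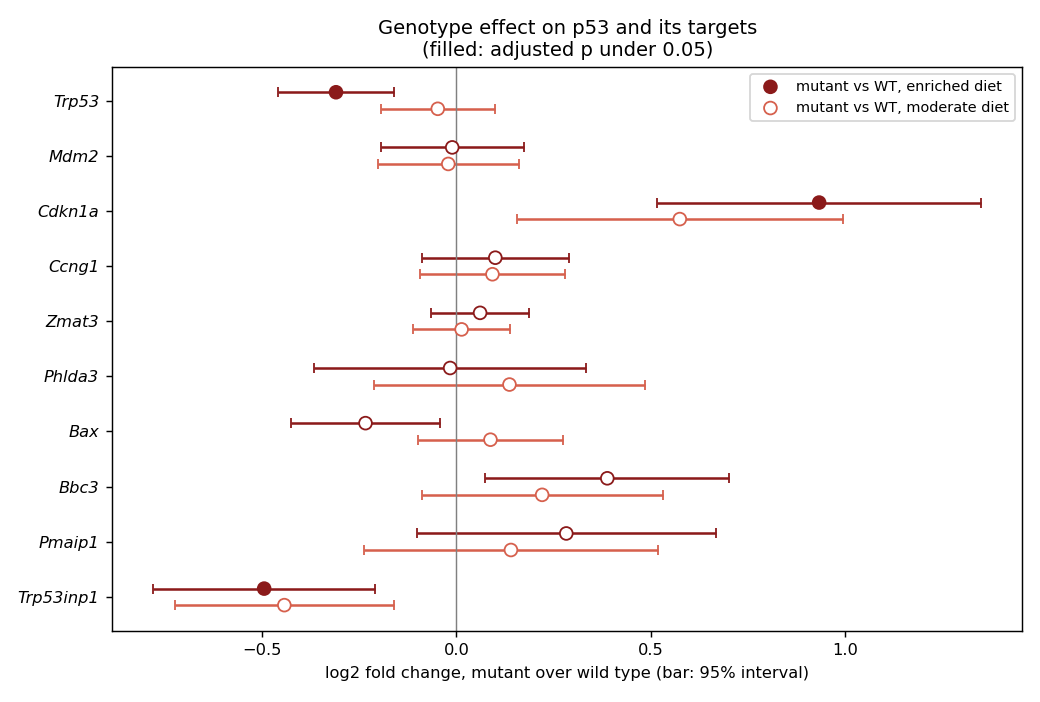
Log2 fold change of each gene, mutant over WT, with its 95% interval, on the enriched (upper point) and moderate (lower point) diets, where filled points passed an adjusted p of 0.05 in edgeR. Cdkn1a lies farthest to the right at 0.93 and 0.58, Trp53inp1 farthest to the left at -0.49 and -0.44, and Mdm2 and Zmat3 sit at the zero line.

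The second question is whether the diet changed these genes. None of the 10 passed in mutants, in WT heads or in the average over genotype by edgeR, where 0% of all 14514 genes passed. In that average 1 of the 10, Cdkn1a, had an unadjusted p under 0.05, against 3.62% of all genes. In the mutants 2 of the 10 had an unadjusted p under 0.05, against 10.8% of all genes tested. Cdkn1a was higher in enriched than in moderate mutants by 0.59 ± 0.20 on the log2 scale (unadjusted p of 0.00844, adjusted p of 0.442, edgeR), with overlapping groups. Trp53 was lower by -0.18 ± 0.07 (adjusted p of 0.442). In WT heads 0 of the 10 had an unadjusted p under 0.05, against 2.44% of all genes, and the enriched diet gave a log2 fold change of 0.23 ± 0.21 for Cdkn1a and of 0.08 ± 0.07 for Trp53.

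The difference between the genotype effects on the 2 diets was tested as an interaction, in which 0% of all genes passed and 9.65% had an unadjusted p under 0.05. Of the 10 genes 2 had such a p. The enriched minus the moderate genotype effect of Trp53 was -0.26 ± 0.10 on the log2 scale and that of Bax -0.32 ± 0.13, both with an adjusted p of 0.501 in edgeR. For Cdkn1a the difference was 0.36 ± 0.28, with a 95% interval of -0.23 to 0.95. Thus the pass of Cdkn1a, Trp53 and Trp53inp1 on the enriched diet and not on the moderate one is not shown to be a difference between diets.

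Other p53 targets for arrest, repair and metabolism were measured for 20 of 21 listed genes. On the enriched diet 7 rose and 2 fell, and on the moderate diet 2 rose and 1 fell, with median log2 fold changes of 0.24 and 0.18. Of all genes tested 14.4% rose and 16.8% fell on the enriched diet, and 4.79% rose and 2.83% fell on the moderate diet. This list and those below were chosen with earlier results of these data known, so their counts are no test of enrichment. Sesn2, a stress-induced regulator of mTORC1 that ATF4 also switches on, rose most clearly. It had 109, 129, 88.1 and 131 CPM in enriched mutants, against 29.2, 31.8, 30.0 and 27.6 CPM in enriched WT heads. In moderate mutants Sesn2 had 103, 124, 30.5 and 115 CPM, against 30.4, 28.4, 27.5 and 33.2 CPM in moderate WT heads, so that mutant replicate 3 lay in the WT range. Its log2 fold changes were 1.96 ± 0.29 and 1.63 ± 0.29 (adjusted p of 0.000303 and 0.00250, edgeR).

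Trp53cor1, the long noncoding RNA lincRNA-p21, lies on the other strand with its start 11.8 kb from that of Cdkn1a. It had 1.20, 1.99, 1.06 and 2.44 CPM in enriched mutants, against 0.240, 0.442, 0.234 and 0.275 CPM in enriched WT heads. The groups did not overlap, and it rose by 2.55 ± 0.47 on the log2 scale (adjusted p of 0.00128, edgeR). In moderate mutants Trp53cor1 had 1.43, 0.615, 0.258 and 1.68 CPM, against 0.336, 0.339, 0.236 and 0.398 CPM in moderate WT heads. The moderate change of 1.49 ± 0.48 missed the threshold (adjusted p of 0.0718, edgeR) and passed without mutant replicate 3. The counts were 5 to 72 per library, and an antisense gene covers 44.1% of its exons, so reads of the pair cannot be told apart.

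Among the DNA repair genes of this list, the translesion polymerase Polk rose by 0.78 ± 0.18 and the damage sensor Xpc by 0.29 ± 0.07 on the enriched diet (adjusted p of 0.00518 and 0.00807, edgeR). Their moderate log2 fold changes were 0.45 ± 0.18 and 0.18 ± 0.07, and neither passed. Ephx1, an epoxide hydrolase, rose on the moderate diet by 0.98 ± 0.28 (adjusted p of 0.0398) at 5 to 24 counts per moderate library, and 7 of 16 fits that left out a library lost that call. Gtse1, a p53-binding protein of G2 phase, fell by -0.25 ± 0.09 on the enriched and -0.37 ± 0.09 on the moderate diet (adjusted p of 0.0495 and 0.0211). With 1 library left out, the enriched call held in 3 of 16 fits and the moderate one in 11 of 16.

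Of 12 listed p53 targets for cell death 11 were tested, and on the enriched diet 3 rose and 3 fell. Of all genes tested 14.4% rose and 16.8% fell there, and 7.62% passed on the moderate diet. Eda2r, a receptor of the TNF receptor family, rose by 0.61 ± 0.16, the death receptor Tnfrsf10b by 0.31 ± 0.10 and the apoptosome scaffold Apaf1 by 0.23 ± 0.08 (adjusted p of 0.00926, 0.0340 and 0.0311, edgeR). Steap3, a metalloreductase, fell by -1.50 ± 0.37, the exonuclease Aen by -0.62 ± 0.12 and Triap1, an inhibitor of apoptosis, by -0.38 ± 0.12 (adjusted p of 0.00661, 0.00181 and 0.0228). In the moderate comparison only Aen passed, at -0.40 ± 0.12 with an adjusted p of 0.0479. The median of the list was 0.01 on the enriched and 0.03 on the moderate diet.

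Of 20 listed regulators and relatives of p53 17 were tested, of which 1 rose and 1 fell on the enriched and 0 passed on the moderate diet. The shares over all genes were 14.4% up and 16.8% down on the enriched diet, and 7.62% passing on the moderate diet. The damage kinase gene Atr rose by 0.39 ± 0.12, a call lost without enriched mutant replicate 4 (0.22). The phosphatase gene Ppm1d, itself a p53 target, fell by -0.27 ± 0.08 (adjusted p of 0.0207 for Atr and 0.0223 for Ppm1d, edgeR). Chek1 passed only in the average over both diets, at 0.14 ± 0.04 with an adjusted p of 0.0171.

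Hrk, a BH3-only gene of the Bcl2 family, had the largest change in any of the apoptosis lists. It had 7.52, 12.1, 5.73 and 10.8 CPM in enriched mutants, against 1.102, 0.603, 0.993 and 1.2203 CPM in enriched WT heads. In moderate mutants Hrk had 7.28, 6.64, 1.15 and 9.56 CPM, against 0.816, 1.16, 0.803 and 0.821 CPM in moderate WT heads, where mutant replicate 3 again lay in the WT range. The log2 fold changes were 3.31 ± 0.45 and 2.74 ± 0.45 (adjusted p of 0.000185 and 0.00149, edgeR).

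All 11 other Bcl2 family genes listed were tested, Hrk included, and 3 rose and 5 fell on the enriched diet, against 1 and 1 on the moderate diet. Over all genes 14.4% rose and 16.8% fell on the enriched diet, and 4.79% and 2.83% on the moderate diet. Among guardians of survival Mcl1 fell by -0.48 ± 0.08 on the enriched and -0.28 ± 0.08 on the moderate diet (adjusted p of 0.000586 and 0.0355, edgeR), whereas Bcl2l2 rose by 0.50 ± 0.14 on the enriched diet. Among the genes that promote death Bad fell by -0.49 ± 0.12, Bak1 by -0.32 ± 0.09 and Bcl2l11 by -0.23 ± 0.08 there. Pro-death and pro-survival genes therefore moved in both directions.

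Of 11 caspases, apoptosome genes and their regulators 1 rose and 4 fell on the enriched diet, and 1 fell on the moderate diet. Over all genes 14.4% rose and 16.8% fell on the enriched diet, and 2.83% fell on the moderate diet. Casp8, the initiator of death receptor signalling, fell by -0.79 ± 0.14 and -0.53 ± 0.14 (adjusted p of 0.00117 and 0.0281, edgeR). Diablo, which counters inhibitors of apoptosis, fell by -0.41 ± 0.09 on the enriched diet, and Birc2, one of those inhibitors, rose by 0.47 ± 0.12. Cycs fell by -0.56 ± 0.18 there, and near-identical copies make its counts uncertain.

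Of 14 CDK inhibitors and G1 cyclins 3 rose and 5 fell on the enriched diet and 3 rose on the moderate diet. Over all genes 14.4% rose and 16.8% fell on the enriched diet, and 4.79% rose on the moderate diet. Ccng2, a cyclin linked to growth arrest and switched on by FoxO factors, rose by 1.62 ± 0.23 and 1.34 ± 0.23 (adjusted p of 0.000261 and 0.00192, edgeR). It had 99.5, 141, 62.0 and 97.9 CPM in enriched mutants, against 36.2, 25.6, 31.8 and 44 CPM in enriched WT heads. Cdkn1b, the p27 inhibitor, rose by 0.59 ± 0.12 and Cdk6 by 0.88 ± 0.21 on the enriched diet, while Ccne1 fell by -0.63 ± 0.13 and the inhibitor Cdkn1c by -0.37 ± 0.11. Cdkn2b rose on the moderate diet (adjusted p of 0.0222) at only 6 to 17 counts per library in mutants, against 1 to 3 counts in WT heads, and 6 of 16 fits that left out a library lost that call.

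Of 15 cell cycle genes that p21 is known to repress 1 rose and 4 fell on the enriched diet, against 14.4% and 16.8% of all genes. On the moderate diet 0 passed, against 7.62% of all genes, and 1 had an unadjusted p under 0.05, against 23.4%. The changes named next are those on the enriched diet. Mcm5 fell by -0.36 ± 0.09, Plk1 by -0.26 ± 0.08 and Cdc20 by -0.25 ± 0.08, and the kinase gene Bub1 rose by 0.31 ± 0.08 (adjusted p of 0.00642, 0.0256, 0.0268 and 0.0106, edgeR). The median of the list was -0.11 on the enriched and 0.01 on the moderate diet.

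Several enriched calls rested on single libraries. Leaving out enriched mutant replicate 4, the library with the high visceral endoderm markers, ended the calls of Atr, Bcl2l2, Bub1, Cdkn1c and Triap1, and the part of those markers was not tested. Leaving out enriched mutant replicate 2 ended those of Apaf1, Triap1 and Bak1, as did WT replicate 3 for these and Cdkn1c, and WT replicate 1 for Apaf1 and Triap1. Those of Tnfrsf10b and Ppm1d held in 12 of 16 fits with 1 library left out, of Plk1 and Cycs in 11, of Cdc20 in 8 and of Bcl2l11 in 3. The moderate calls of Aen, Mcl1, Casp8 and Gtse1 were lost without mutant replicate 1 or 4 and without WT replicate 1 or 3, among others. The calls of Sesn2, Hrk and Ccng2 held without any one library on both diets, although those of Sesn2 and Ccng2 on the moderate diet were lost without the 3 libraries of contradicted sex label. No left-out library ended the calls of Trp53cor1, Polk, Xpc, Eda2r, Steap3, Aen, Mcl1, Casp8, Bad, Diablo, Birc2, Cdkn1b, Ccne1, Cdk6 and Mcm5 on the enriched diet.

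**Figure D4:**
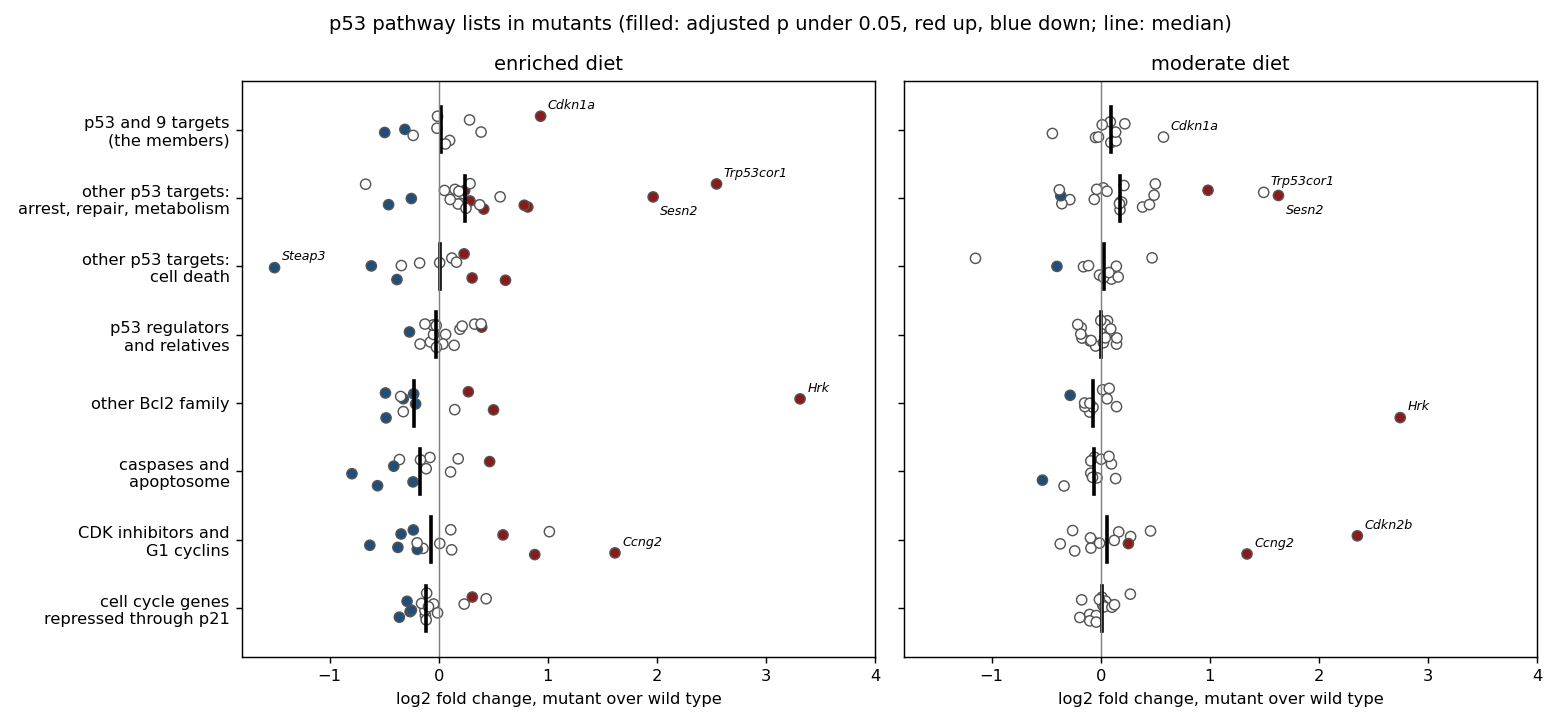
Log2 fold change, mutant over WT, of every tested gene in 8 lists of the p53 pathway, with the enriched diet on the left and the moderate diet on the right, filled where the adjusted p was under 0.05 in edgeR (red up, blue down) and a bar at each median. Hrk at 3.31 and 2.74, Sesn2 and Ccng2 lie far to the right of their lists. Trp53cor1 at 2.55 lies beyond Sesn2 on the enriched diet, and Cdkn2b at 2.35 beyond Ccng2 on the moderate diet. The median bars stay between -0.23 and 0.24.

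Genes of the ATF4 stress response and of low oxygen rose in mutants on both diets. Of 8 ATF4 stress genes 7 rose on the enriched and 6 on the moderate diet, and 8 of 8 low-oxygen genes rose on both. Over all genes 14.4% rose on the enriched and 4.79% on the moderate diet. Both lists were chosen with earlier results of these data known, so these counts are no test of enrichment. The low-oxygen genes, such as Adm and Ddit4, summed to 2744 to 3502 CPM in enriched mutants, against 1084 to 1558 CPM in enriched WT heads. They summed to 3042, 4144, 1511 and 3017 CPM in moderate mutants, against 964 to 1095 CPM in moderate WT heads. The ATF4 genes, such as Chac1 and Trib3, summed to 1220 to 1482 CPM in enriched mutants, against 690 to 854 CPM in enriched WT heads. They summed to 1304, 1408, 811 and 1274 CPM in moderate mutants, against 737 to 818 CPM in moderate WT heads. Moderate mutant replicate 3, whose Ift88 level was the lowest of all libraries at 2.01 CPM, was thus the lowest mutant in both sums and in Cdkn1a. Within groups the order was not shared throughout, and it depended on the measure. Enriched WT replicate 1 had the highest low-oxygen sum of the WT heads, at 1558 CPM. Its Cdkn1a was the lowest of the enriched WT heads, at 4.89 CPM. By mean log2 CPM of the low-oxygen genes it had 5.15, just below 5.18 in enriched WT replicate 4. Enriched mutant replicate 4 had the highest such mean, at 7.70, close to 7.68 and 7.66 in enriched mutant replicates 2 and 1. Its Cdkn1a was the lowest of the enriched mutants, at 9.05 CPM. By the sum it had 2944 CPM, below 3502 CPM in enriched mutant replicate 1. The part of either response in the level of Cdkn1a was not tested.

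**Figure D5:**
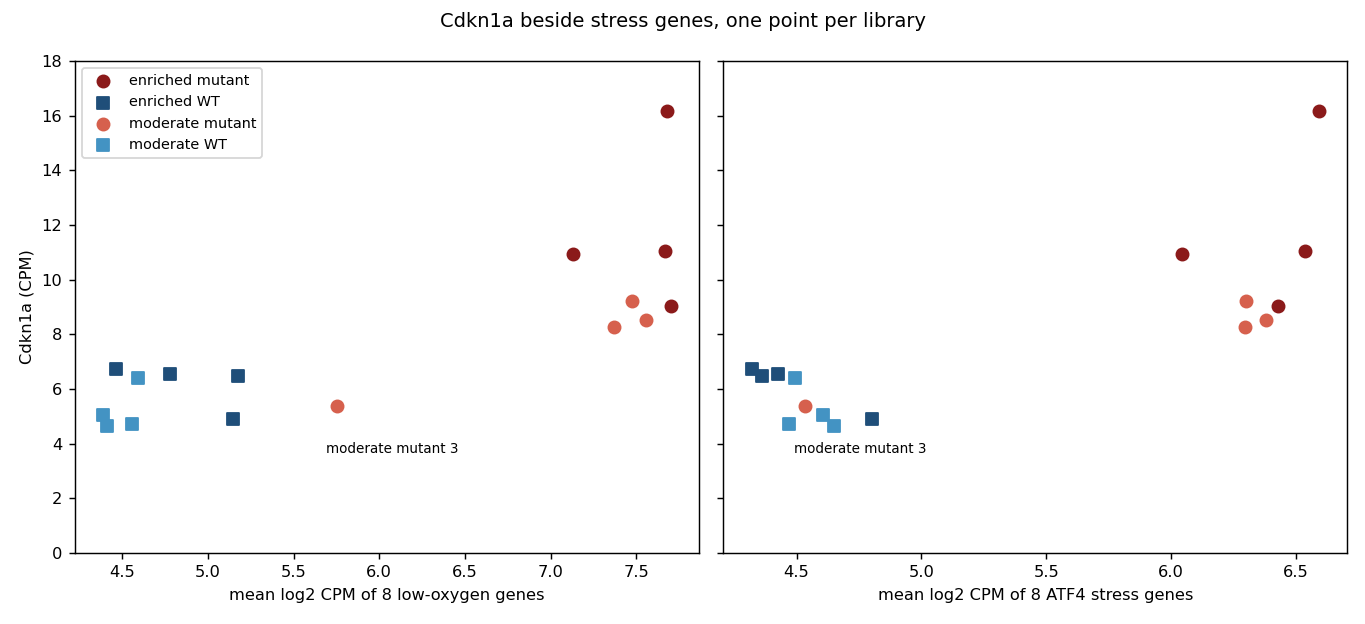
Cdkn1a in CPM against the mean log2 CPM of 8 low-oxygen genes (left) and of 8 ATF4 stress genes (right), one point per library, with mutants as circles and WT as squares. The mutants other than moderate mutant replicate 3 sit at upper right with 8.27 CPM or more, and that library sits beside the WT heads at 5.36 CPM.

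Some markers of blood and vessel cells also differed between mutants and WT heads. Over all genes 14.4% rose and 16.8% fell on the enriched diet, and 4.79% rose and 2.83% fell on the moderate diet. Of 7 erythroid markers 2 fell on the enriched and 1 on the moderate diet. The log2 fold change was above 0 for 0 of the 7 on either diet. Its median was -0.58 on the enriched and -0.96 on the moderate diet, beside -0.01 over all genes on either diet. The markers summed to 701 to 3539 CPM in enriched mutants and 1468 to 3730 CPM in enriched WT heads. They summed to 1218 to 3293 CPM in moderate mutants and 2397 to 6337 CPM in moderate WT heads. Of 7 endothelial markers 2 rose and 3 fell on the enriched diet, at 348 to 371 CPM in mutants and 322 to 384 CPM in WT heads, and 2 rose and 0 fell on the moderate diet, at 360 to 419 CPM in mutants and 316 to 372 CPM in WT heads. Their part in the levels of the 10 genes was not tested. A further fit left out moderate mutant replicate 3, enriched mutant replicate 3 and moderate WT replicate 2, chosen after seeing the data. Its enriched log2 fold changes were 0.99 for Cdkn1a, -0.30 for Trp53 and -0.48 for Trp53inp1 (adjusted p of 0.00231, 0.0108 and 0.0287, edgeR). The moderate change of Cdkn1a was 0.69 there, with an adjusted p of 0.0491 in edgeR. Moderate mutant replicate 3 had the lowest Cdkn1a of the mutants, so its removal favoured that pass. Without the 3 libraries of contradicted sex label the enriched changes of Cdkn1a, Trp53 and Trp53inp1 were 0.93, -0.30 and -0.48 and still passed. The moderate changes of Cdkn1a and Trp53inp1 were 0.40 and -0.31 there, and neither passed. These moderate changes were as weak as in any of the 28 alternatives.

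Across the 16 libraries the 10 genes did not vary as a block. Cdkn1a and Bbc3 went together with a Pearson r of log2 CPM of 0.83 over 16 libraries and 0.70 after the group means were subtracted. Trp53 and Bax did so with 0.70 and 0.72, and Pmaip1 and Zmat3 with 0.64 and 0.61. Cdkn1a and Trp53 ran opposite to each other with -0.78, and with -0.44 within groups, and Mdm2 gave -0.53 with Phlda3 within groups. These values are descriptions of libraries that share diets, genotypes and depth.

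In naming the genes most like each member, the other members and predicted-gene symbols were passed over. Among the remaining genes tested Ntrk2 was most like Cdkn1a, with r of 0.95 over 16 libraries. Slc19a2 and Stat5b followed with 0.93 each. For Trp53 the genes most alike were Myg1 with 0.98, Nup35 and Asna1 with 0.97 each. For Bax they were Zfp771, Plekhj1 and Sf3b5 with 0.93, 0.93 and 0.91, for Bbc3 Dedd, Tmed4 and Adssl1 with 0.91, 0.90 and 0.89, and for Trp53inp1 Dnmt3a, Foxo4 and Zcchc12 with 0.89, 0.88 and 0.87. For Mdm2 they were Guca1b, Zcchc8 and Axin2 with 0.85, 0.84 and 0.83, and for Phlda3 Tbc1d7, Scp2 and Nenf with 0.83, 0.82 and 0.82. For Pmaip1 they were Camk2d, Prkd1 and Pamr1 with 0.79 each, and for Zmat3 Zkscan6, Sowaha and Mcam with 0.78, 0.78 and 0.75. After the group means were subtracted, r with Trp53inp1 was 0.83 for Dnmt3a, 0.62 for Foxo4 and 0.55 for Zcchc12. For every other gene named here it was then 0.64 or more.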

How the data were processed

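RNA sequencing was done on 16 head libraries, 4 per group. Per the submitters' processing notes, the authors used FastQC 0.11.5, TopHat2 2.1.1, SAMtools 1.8, HTSeq 0.9.1 and DESeq2 1.22.2 with build mm10. For counting mode, strand option and annotation, nothing is given in the sources used here. What the authors deposited are unscaled counts of reads for each gene symbol. Per the labels' protocols, libraries were made with an unstranded TruSeq RNA v2 kit.

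The counts of all 16 libraries were scaled by trimmed means of M values and fitted with edgeR 4.0.16 (quasi-likelihood, R 4.3.3, limma 3.58.1), with a coefficient per group and the labelled sex as covariate. Genes were tested where 4 or more libraries had 10 or more counts, and p-values were Benjamini-Hochberg adjusted over all 14514 of them, with a threshold of 0.05. Standard errors are the log2 fold change over the root of F. CPM values use the scaled library totals, and Pearson r used log2 CPM with a prior count of 2. The model was tested on simulated data. Alternatives were DESeq2 1.42.0, limma-voom, other scalings, filters and covariates, the replicate block, the compared groups alone, and leaving out libraries.

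The members and gene lists were chosen with earlier results of these data known. All 10 members are named in each comparison. Of each list, up to 6 genes past the threshold in the average genotype contrast with the smallest p are named. Most like a member are the 3 tested genes with the highest r, with the members and predicted-gene symbols passed over. The genes with the pattern most like that of Ccng1 are not reported here.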

Additional observations from a re-analysis of the deposited data

Results flagged for a closer look

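In 1 of the 40 sets of 4 libraries examined for the 10 genes a library stood apart from the rest of its group by Dixon's ratio. Cdkn1a had 4.89 CPM in enriched WT replicate 1, below the 6.47 to 6.71 CPM of the other 3 enriched WT heads. About 1 in 20 such sets is marked by chance. The rise of Cdkn1a in enriched mutants passed the threshold also without that library.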

How the results depend on the processing

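The direction of no called value among the 10 genes turned under any alternative. Cdkn1a and Trp53 passed on the enriched diet in 28 of 28 alternatives, with log2 fold changes of 0.71 to 1.07 for Cdkn1a and -0.34 to -0.25 for Trp53, and Trp53inp1 passed in 26 of 28, being lost with the compared groups only and without enriched WT replicate 2. On the enriched diet 3 of the 10 genes passed. With Bbc3 added, 4 passed with DESeq2, median-of-ratios scaling, no filter, the CPM filter and without the 3 libraries with unusual values. Without the sex covariate 4 passed, with Bax added, while 2 passed with the compared groups only and 5 at an adjusted p of 0.1. Leaving out each library in turn gave 3 to 4. On the moderate diet 0 passed, against 2 with DESeq2, 2 at an adjusted p of 0.1, and 1 each with the CPM filter, without the sex covariate, with the compared groups only, with the replicate block and without the 3 libraries with unusual values, which were chosen after seeing the data. Leaving out each library in turn gave 0 to 2 there. The share of all genes that passed with DESeq2 is not given here, so its counts are not a result about the 10 as a group. Over all genes the moderate count of 1106 was 719 with the compared groups only, 1906 at an adjusted p of 0.1, 105 without the 3 libraries of contradicted sex label, and 538 to 2107 with 1 library left out. The average genotype count of 5202 was 2964 without those 3 libraries. The causes were not tested.

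Replicate numbers did not pair the libraries throughout. Of 24 pairs with the same number 8 had a correlation of deviations over 0.1, from -0.29 to 0.51. Only 5 of 16 libraries went best with their own number. Among those numbered 4, enriched WT gave 0.51 with enriched mutant and 0.46 with moderate mutant. Enriched mutant with moderate WT gave -0.17. What the libraries numbered 4 may share was not tested. The block added the moderate fall of Trp53inp1 (adjusted p of 0.0382 in edgeR) and changed no other call among the 10 genes in the genotype comparisons. Pmaip1 had the fewest counts of the 10, at 68 to 234 per library, while the SE of the enriched log2 fold change was 0.18 for Pmaip1 and 0.20 for Cdkn1a.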
